A study of Oncorhynchus mykiss with 3 samples.

Results

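The predicted miRNAs of rainbow trout eggs whose main sequence is 20 to 24 nt long were described here, the length at which most animal miRNAs are read. A predicted miRNA is a small RNA that did not meet the study's criteria for a match in miRBase, the miRNA database. Its surrounding genome sequence could fold into a hairpin. The deposited table names such miRNAs omy-miR-nov, with a number and an arm. For each of the 305 predicted names the sequence with the most reads was taken as the main sequence, with ties broken by alphabet, and 156 names had a main sequence of 20 to 24 nt (51.1%). Predicted and known names together came to 880. The members were thus chosen by the read numbers of the sequences of each name and by main length, and both are given below as descriptions.

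Small RNA was sequenced from eggs of a commercial rainbow trout population. The groups were D1PO, D7PO and D14PO, which are eggs at 1, 7 and 14 days post-ovulation. The labels give survival rates of 91.8% for D1PO and 73.4% for D7PO, and a rate below 50% for D14PO. The paper gives the same values as fertilization rates. RNA of different females was pooled and each age was read as 1 library, so there was no replicate. The deposited tables hold a single read number per unique sequence, assigned to no library, so no value below belongs to a single age and no test was run.

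In animals, a miRNA is cut from a hairpin precursor in 2 steps, which leaves a short duplex of the 5p and the 3p arm with overhanging 3′ ends. One strand enters an Argonaute protein and directs it to mRNAs, mainly by bases 2 to 8 from its 5′ end, the seed, so a shift of the 5′ end gives another seed. Eggs store miRNAs and mRNAs of the mother for the early embryo. Germ cells also hold piRNAs, a class of small RNA longer than miRNAs that often begins with U and is made without a hairpin.

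The 10 members with the most reads are shown first, since they carried most of the reads, and omy-miR-nov-95-5p is added because the study took it to RT-qPCR. Each line gives the main sequence 5′ to 3′ with the seed in capitals.
omy-miR-nov-77-3p: gAAUGAUUagaggucuuggggc
omy-miR-nov-56-5p: aUCUCGUGggcucucguuugugg
omy-miR-nov-105-5p: uUGGUAAGgaucugucucugcu
omy-miR-nov-2-5p: uCGGCAAAcugugagacuugacc
omy-miR-nov-29-3p: cGUAGUUGgaucucgggaucgagc
omy-miR-nov-283-3p: cGGGGCCGaggacuuaguac
omy-miR-nov-102-5p: aCUGUCACucugauauauuacu
omy-miR-nov-277-5p: cACGGACCaaggagucuaacgca
omy-miR-nov-102-3p: uGAUAUAUuacugugacuguca
omy-miR-nov-203-5p: uAUGAGAAcucacaaaggaga
omy-miR-nov-95-5p: uGACUGUGaugaacacuuaucccg
No pair of these 11 sequences shares a seed, and 5 of them begin with U.

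The members held 183930 reads, which was 55.2% of the reads of predicted miRNAs and 2.29% of all reads in both tables. The reads were concentrated in few names. omy-miR-nov-77-3p had 53341 reads (exact 95% Poisson interval 52889 to 53796), or 29% of the members' reads. The next were omy-miR-nov-56-5p with 16326 reads, omy-miR-nov-105-5p with 14294, omy-miR-nov-2-5p with 13953 and omy-miR-nov-29-3p with 13415. The 10 leading members held 72.6% of the reads and 37 members held 90%. The leading members were not compared with ribosomal, transfer or other annotated RNAs. For omy-miR-nov-77-3p, omy-miR-nov-29-3p and omy-miR-nov-277-5p an origin from ribosomal RNA is possible and was not tested. The other members were not screened for such an origin either, so this list need not be complete. These 3 names held 70327 reads (38.2%), and the other 153 members held 113603. The median member had 156.5 reads, with quartiles of 86.75 and 443.25. Below 50 reads were 17 members. The fewest reads were those of omy-miR-nov-60-5p with 26, omy-miR-nov-9-3p with 30, omy-miR-nov-96-5p with 32 and omy-miR-nov-273-3p with 34. At 26 reads the Poisson interval ran from 17.0 to 38.1, so the order of the lowest members was within counting error. omy-miR-nov-95-5p had 851 reads (794.8 to 910.2). The median was 192 reads over the 137 predicted names of 25 nt or longer and 465 over the 428 known names of 20 to 24 nt. The intervals hold only if the column sums reads, and they cover counting error only.

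**Figure D1:**
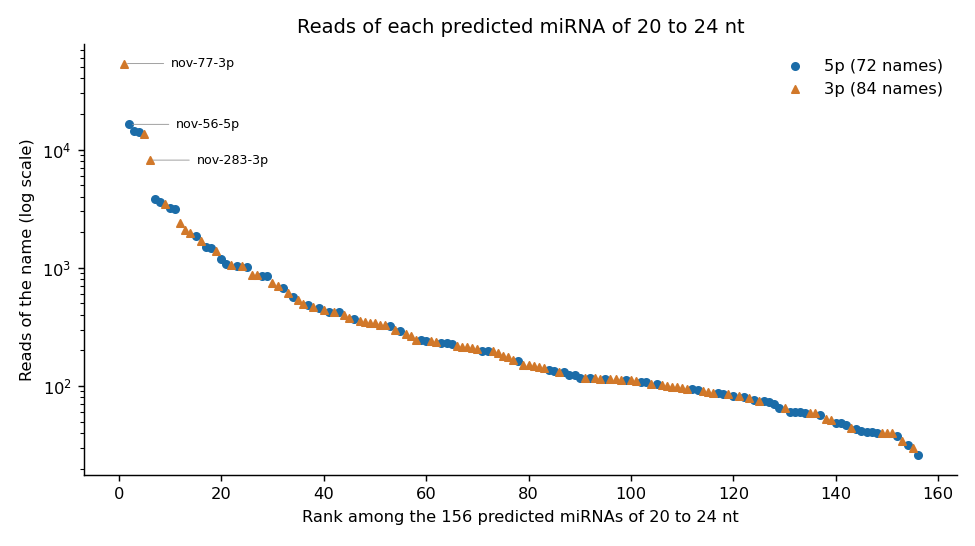
Reads of each member on a log axis against its rank by reads, with circles for the 72 names of the 5p arm and triangles for the 84 of the 3p arm. The members range from 53341 reads to 26, and both arms occur over the whole range.

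At the edges of the length range, the median name had 456 reads at 20 nt (15 names) and 238 at 24 nt (19 names), against 333 at 19 nt (11 names) and 269 at 25 nt (23 names). The most frequent main length was 22 nt, with 67 names and a median of 110 reads. omy-miR-nov-29-3p lay just inside the rule, with 6712 reads in its 24-nt sequence and 6703 in the same sequence with 1 more 3′ base. Outside it, omy-miR-nov-136-5p, omy-miR-nov-16-5p and omy-miR-nov-48-5p each held a sequence of 20 to 24 nt below a longer main sequence. Their reads in the shorter and the longer sequence were 267 and 468, 304 and 380, and 236 and 354. Of the members' own reads, 82.7% were in sequences of 20 to 24 nt, and 31507 reads were in 11 sequences of 25 nt or longer.

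The members came from both arms in similar numbers. There were 84 names of the 3p arm and 72 of the 5p arm, so 53.8% were 3p (exact 95% Clopper-Pearson interval 45.7 to 61.8), which treats names as independent. By reads the 3p share was 57.6%, and 34.6% without omy-miR-nov-77-3p, omy-miR-nov-29-3p and omy-miR-nov-277-5p. Without the 10 leading members it was 54.9%, so it depends on which leading names are left out. Arms were read from the names alone. The 5p reads include the 16326 of omy-miR-nov-56-5p, whose sequence shares a run of 19 bases with omy-miR-nov-56-3p, so its arm is uncertain. The 3p share of names was 48.9% for predicted names of 25 nt or longer and 53.0% for known names of 20 to 24 nt. Of the members, 104 lay on chrUn, which holds trout genome sequence that was not placed on a chromosome, with positions up to 1075231134. The others lay on 25 named sequences, most of them called chrUn with a suffix, such as chrUn_24. Being outside chrUn thus need not mean being placed on a chromosome. The 3p share was 48.1% among the 104 on chrUn and 65.4% among the other 52. The plus strand held 82 members (52.6%, interval 44.4 to 60.6), against 93 of 137 predicted names of 25 nt or longer (67.9%, 59.4 to 75.6) and 51.6% of known names with a position.

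U was the most frequent first base of the members, but its share differed with length. It opened 86 of 156 main sequences (55.1%, 47.0 to 63.1), with A in 32, G in 20 and C in 17. omy-miR-nov-247-5p, with 59 reads, begins with an undetermined base. At the other positions of the members U made up 28.0% of the bases, and at single positions from 2 to 20 it ranged from 21.2% at position 4 to 34.6% at position 17. The predicted names of 25 nt or longer began with U in 84.7% (77.5 to 90.3), and the known names of 20 to 24 nt in 37.9% (33.2 to 42.6). Among the members, U came first in 12 of 15 names of 20 nt, 11 of 24 of 21 nt, 29 of 67 of 22 nt, 17 of 31 of 23 nt and 17 of 19 of 24 nt. The share was 85.3% over 20 and 24 nt together (68.9 to 95.05), against 46.7% over 21 to 23 nt (37.6 to 56.0). Both intervals treat names as independent and were not used as a test. Over all 305 predicted names the share was 68.2% (62.6 to 73.4). The names of 24 nt stood near those of 25 nt, of which 82.6% began with U. At the other edge the names of 20 nt stood above those of 19 nt, of which 5 of 11 did (45.5%). By arm the share was 58.3% for 3p and 51.4% for 5p.

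**Figure D2:**
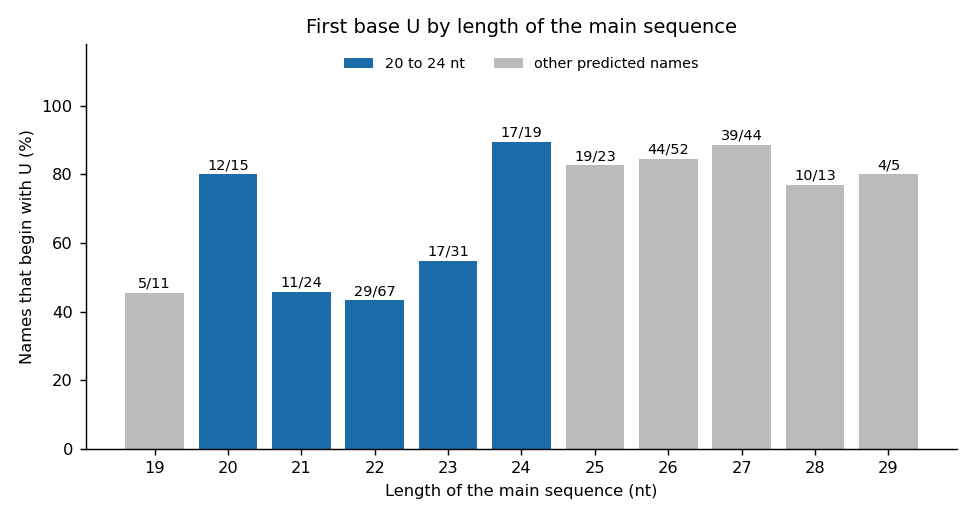
Share of names whose main sequence begins with U, in percent, against main sequence length in nt, with counts above the bars and members set apart in color from predicted names of 19 nt and of 25 nt or longer. The bars of 21 to 23 nt stand between 43.3% and 54.8%, below those of 20 nt, of 24 nt and of the longer names. The bar of 19 nt stands at 45.5%.

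By reads the share was lower. Names whose main sequence begins with U held 35.2% of the members' reads, and U was the first base of 34.7% of the reads themselves, each read counted with its own sequence. Without omy-miR-nov-77-3p, omy-miR-nov-29-3p and omy-miR-nov-277-5p the names that begin with U held 57.0% of the reads. Of the 10 leading members 4 begin with U, and those 4 held 26.1% of that group's reads. omy-miR-nov-77-3p begins with G, omy-miR-nov-56-5p with A, and omy-miR-nov-29-3p, omy-miR-nov-283-3p and omy-miR-nov-277-5p with C. Over the other 146 members U opened 56.2% of the main sequences and 57.2% of the reads themselves. It opened 83.2% of the reads of predicted names of 25 nt or longer and 83.9% of those of known names of 20 to 24 nt. The GC content of the main sequences had a median of 45.0% (21.7 to 76.2%), close to 44.4% and 45.5% in those groups, and the median of the 10 leading members was 51.1%.

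**Figure D3:**
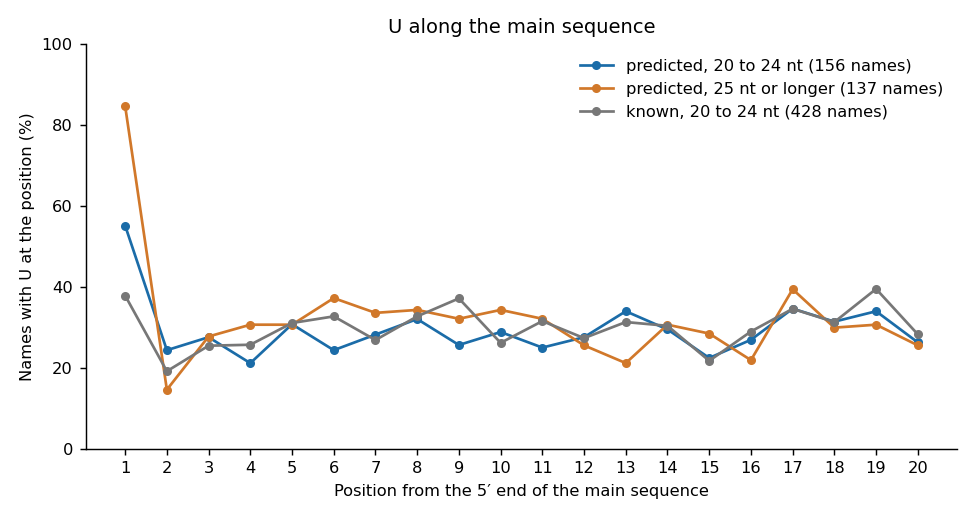
Share of U in percent at each position of the main sequence, counted from 1 at the 5′ end, for members, predicted names of 25 nt or longer and known names of 20 to 24 nt. In the members U falls to between 21.2% and 34.6% at positions 2 to 20, against 55.1% at position 1.

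The hairpins of the members had a median length of 88 nt (86 to 91), quartiles of 80 and 97 nt and a range of 57 to 142 nt, taken from the deposited start and end. The longest was that of omy-miR-nov-77-3p at chrUn:155802221-155802362, plus strand. The shortest, of 57 nt, were those of omy-miR-nov-2-5p at chrUn:215740496-215740552 and omy-miR-nov-240-3p at chrUn_10:13654651-13654707, both on the plus strand. Their genome build was not given in the sources used here. By arm the median was 86 nt for 3p and 93.5 nt for 5p members. It was 81 nt (79 to 84) for predicted names of 25 nt or longer and 75 nt (71 to 78) for the 403 known names of 20 to 24 nt with a position. Hairpins of 90 to 99 nt made up 25.6% of the members and 12.4% of the predicted names of 25 nt or longer, and hairpins of 100 to 109 nt made up 14.7% and 2.92%. At 110 nt or more the order was reversed, with 5.77% of the members and 10.9% of the longer names. Hairpins of 70 to 79 nt made up 13.5% of the members, against 33.6% of the longer names. Across the 156 members Spearman's rho of hairpin length was -0.09 with main length and -0.07 with reads, as a description over names that share the same libraries.

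**Figure D4:**
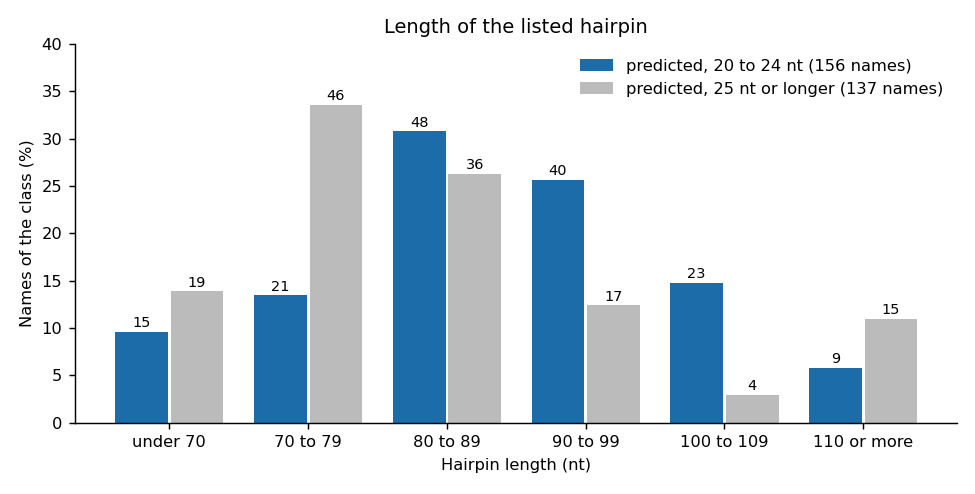
Share of names in percent by hairpin length in steps of 10 nt, for members and for predicted names of 25 nt or longer. The members are most frequent at 80 to 89 nt (30.8%), the longer names at 70 to 79 nt (33.6%).

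Reads of both arms of a hairpin were found for few members. Of the 152 nov numbers among the members, 4 had both arms of 20 to 24 nt, and 8 more had the other arm at another length. When names with other numbers and known names on an overlapping hairpin of the same strand were counted too, 24 members (15.4%) had a partner, in 21 pairs. Of these pairs, 20 were named as opposite arms and 5 involved a known name. The opposite arms were folded together with RNAcofold to read the overhangs of the 3′ ends. In 6 of the 20 pairs both 3′ ends stood out by 1 to 3 bases, the form left by the enzymes that cut miRNA precursors. These were 4 of 16 pairs with a predicted partner (25%, 7.27 to 52.4) and 2 of 4 pairs with a known partner. The other known pairs both held omy-miR-nov-50-3p, so they are not independent. Its partners were sequences of omy-miR-181b-5p, with 53 of 29458 reads of that name, and of omy-miR-181c-5p, with 20 of 335. None of 14 opposite-arm pairs of 25 nt or longer had this form (0 to 23.2%). The sets are unlike, since these needed both strands at that length, while partners of members could have any length. The pair with omy-miR-nov-147-3p held a 26-nt sequence of the member omy-miR-nov-217-5p.

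The 6 duplexes are shown with the bases that pair in the predicted fold in capitals, each strand 5′ to 3′. They hold 15 to 19 base pairs.
omy-miR-nov-102-5p: ACuGUCACucUGAUAUAUUAcu
omy-miR-nov-102-3p: UGAUAUAUUAcuGUGACuGUca
omy-miR-nov-245-5p: CAGAUCCAAGUCACGUGAUgu
omy-miR-nov-245-3p: gAUCACGUGACUUGGAUCUGcu
omy-miR-nov-109-5p: GGGGGCAGAGCAGUCAGcc
omy-miR-nov-109-3p: UUGGCUGCUCUGUCCCCcca
omy-miR-nov-232-5p: cCCCAGaUCUGUGUGUUGUcu
omy-miR-nov-196-3p: aACGGCACaAUAGAcCUGGGacc
omy-miR-139-5p: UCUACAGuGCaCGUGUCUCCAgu
omy-miR-nov-169-3p: UGGAGAUGCGGCuCUGuUGGAau
omy-miR-nov-153-5p: aACCCaAACAAAAuCAUUgacu
omy-miR-430a-3p: uaAGUGcuUUUUGUUgGGGUau
The last pair of strands joins a member to omy-miR-430a-3p, of a family that clears maternal mRNAs in the zebrafish embryo.

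Of the 4 numbers with both arms among the members, omy-miR-nov-102 had the most reads, with 3455 reads of the 3p and 3790 of the 5p arm from chrUn:213987297-213987425, minus strand. The arms paired over 17 bases with 3′ overhangs of 2 bases on each strand, at a fold energy of -15.7 kcal/mol. The strands also share a run of 12 bases in the same direction, which ends the 5p and begins the 3p strand. Whether both names cover overlapping parts of 1 place was not tested. omy-miR-nov-245 had 264 reads of the 3p and 86 of the 5p arm from chrUn:337111390-337111485, plus strand. Its arms paired over 19 bases at -34.6 kcal/mol, the lowest energy among the 20 pairs, and their sequences are reverse complements over a run of 19 bases. omy-miR-nov-109-3p had 866 reads and its 5p arm, of 19 nt and outside the length range, had 82. omy-miR-nov-196-3p with 706 reads and omy-miR-nov-232-5p with 1072 reads carry different numbers but lie on 1 hairpin, chrUn:334548753-334548832, minus strand.

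Both duplexes with a known name lay on chrUn, plus strand. omy-miR-nov-169-3p had 493 reads at chrUn:757608683-757608793, over the hairpin of omy-miR-139-5p, and the omy-miR-139-5p sequence at that place had 732 reads. These strands paired over 19 bases with overhangs of 2 bases on each side. omy-miR-nov-153-5p had 162 reads at chrUn:375164565-375164666, over a hairpin of omy-miR-430a-3p, whose sequence there had 863 of the 9503 reads of that name. That sequence is not the main one of omy-miR-430a-3p, and it begins with the whole main sequence of omy-miR-430c-3p. Compared without gaps, omy-miR-nov-153-5p also differs from omy-miR-430c-5p (aCCCUAACaaaagcauugacu, seed in capitals, 2160 reads) at 2 of 21 aligned bases, and starts 1 base earlier.

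The remaining hairpins with both arms had other ends. omy-miR-nov-87 had 2080 reads of the 3p and 372 of the 5p arm, with 15 base pairs and overhangs of 1 and 0 bases. omy-miR-nov-71 had 373 reads of the 3p and 41 of the 5p arm, and only 7 bases paired in a fold that was not all between the strands. In omy-miR-nov-56 the names of opposite arms cover 1 place. The 3p sequence, 25 nt with 433 reads, starts 4 bases after the 5p start and shares a run of 19 bases with it. omy-miR-nov-77-3p lies on a hairpin that overlaps that of omy-miR-nov-276-5p, with 466 reads and 29 nt, and that fold had 3′ ends recessed by 1 and 9 bases. Neither of these names was compared with ribosomal RNA. omy-miR-nov-208-5p with 131 reads and omy-miR-nov-222-3p with 333 reads paired over 16 bases with blunt ends.

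omy-miR-nov-50-3p, with 738 reads, lay on the hairpin of 3 known names of the miR-181 family, known from lymphocytes in mammals, at chrUn:593150662-593150746, plus strand. The sequences are shown because separate names hold nearly the same bases, with the seed in capitals.
omy-miR-nov-50-3p: aCUCGCUGaacaaugaaugca
omy-mir-181b-2-3p: cUCGCUGAacaaugaaugcaa
They share a run of 20 bases, and omy-miR-nov-50-3p starts 1 base earlier, so its seed is shifted by 1 base against the sequence shown. The known sequence shown had 141 of the 280 reads of its name, fewer than the predicted one. Another sequence of omy-mir-181b-2-3p, with 16 reads, starts where omy-miR-nov-50-3p starts and has the same seed. Reads of this arm thus stand in both tables.

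In 21 members (13.5%, 8.53 to 19.8) the reads were spread over several sequences, 17 with 2 and 4 with more. That was 14.6% of predicted names of 25 nt or longer and 51.6% of known names of 20 to 24 nt (46.8 to 56.5). The known names are not at like depth. Their median was 465 reads against 156.5 for the members, and they reached down to 10 reads, against 20 for a predicted sequence. Whether this affects the shares of known names given here was not tested. The main sequence of these 21 members held between 29.4% and 82.1% of the reads of the name, with a median of 61.6%. Of the 26 other sequences 12 began at the same base as the main sequence (46.2%, 26.6 to 66.6). Among predicted names of 25 nt or longer the share was similar, with 14 of 28 (50%, 30.6 to 69.4). Among known names it was 288 of 397 (72.5%, 67.9 to 76.9). Another 5′ end was found for 14, of which 7 began 2 bases earlier, 3 began 1 base earlier, 1 began 4 bases earlier and 3 began later. Only 12 of the 26 thus kept the seed. A longer 3′ end was the only change in 10, and 4 held mismatches. For 8 of the 26 the table gives another hairpin than that of the main sequence, so 1 name can cover several places of the genome.

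The sequences of the leading 2 such members are given with their seeds in capitals, since they show both kinds of change.
omy-miR-nov-77-3p, 39702 reads: gAAUGAUUagaggucuuggggc
omy-miR-nov-77-3p, 13639 reads: aAGCGAAUgauuagaggucuuggggc
omy-miR-nov-105-5p, 4200 reads: uUGGUAAGgaucugucucugcu
omy-miR-nov-105-5p, 3497 reads: uGGUAAGGaucugucucugcuucgua
omy-miR-nov-105-5p, 3411 reads: uUGGUAAGgaucugucucugcuucgu
omy-miR-nov-105-5p, 3186 reads: uUGGUAAGgaucugucucugcuucgua
In omy-miR-nov-77-3p the second sequence starts 4 bases earlier, ends at the same base and has another seed. In omy-miR-nov-105-5p the main sequence held 29.4% of the reads (28.6 to 30.1), the lowest share among the members, and its other 3 sequences are 26 or 27 nt long. The reads of this name in sequences over 24 nt thus outnumbered those of the main sequence. More than 2 sequences were also read for omy-miR-nov-124-5p, with 721, 642 and 102 reads, omy-miR-nov-217-5p, with 510, 339 and 173 reads, and omy-miR-nov-235-5p, with 696, 443 and 348 reads.

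Few members had a neighbour by listed position, and positions on chrUn are of unplaced sequence. Within 10 kb on the same strand, counted from start to start of separate hairpins, 9 pairs of hairpins included a member, 6 with a known and 3 with a predicted hairpin. They involved 8 members (5.13%), of which 5 had a known neighbour (3.21%). Among the 137 predicted names of 25 nt or longer, 11 had a neighbour (8.03%) and 2 a known one (1.46%). The nearest neighbours were known names beside omy-miR-nov-43-3p and omy-miR-nov-69-3p.

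omy-miR-nov-43-3p, with 40 reads (28.6 to 54.5), lay at chrUn_13:6314611-6314685, minus strand, between omy-miR-430d-3p 143 nt away and omy-miR-430c-3p 242 nt away. It also has their seed. The sequences at these places are shown with the seed in capitals.
omy-miR-nov-43-3p: uAAGUGCUuuucauuaggguag
omy-miR-430c-3p: uAAGUGCUucucuuuagggua
omy-miR-430d-3p: uAAGUGCUucucuuuaggguuau
omy-miR-nov-43-3p equals this sequence of omy-miR-430c-3p at 19 of 21 aligned bases and that of omy-miR-430d-3p at 18 of 22. The names omy-miR-430c-3p and omy-miR-430d-3p had 7834 and 1148 reads.

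omy-miR-nov-69-3p, with 114 reads, lay 199 nt from omy-miR-30a-3p (792 reads) and 218 nt from omy-miR-30d-2-3p (8466 reads), which overlap. omy-miR-nov-50-3p lay 564 nt from omy-miR-181a-3p, with 2622 reads. omy-miR-nov-269-3p, with 423 reads, was 6559 nt from the hairpin of omy-miR-152-3p and omy-miR-152-5p, with 23191 and 365 reads, on chrUn_12. omy-miR-nov-277-5p, with 3571 reads, lay 2297 nt from omy-mir-133b-1-5p, of a muscle family, with 21 reads, and 4441 nt from a hairpin of omy-miR-nov-175-5p and omy-miR-nov-227-3p. The only pair of hairpins with a member each was omy-miR-nov-202-5p with 115 reads and omy-miR-nov-81-3p with 298 reads, 1750 nt apart on chrUn. omy-miR-nov-70-5p, with 76 reads, was 5524 nt from omy-miR-nov-177-3p.

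**Figure D5:**
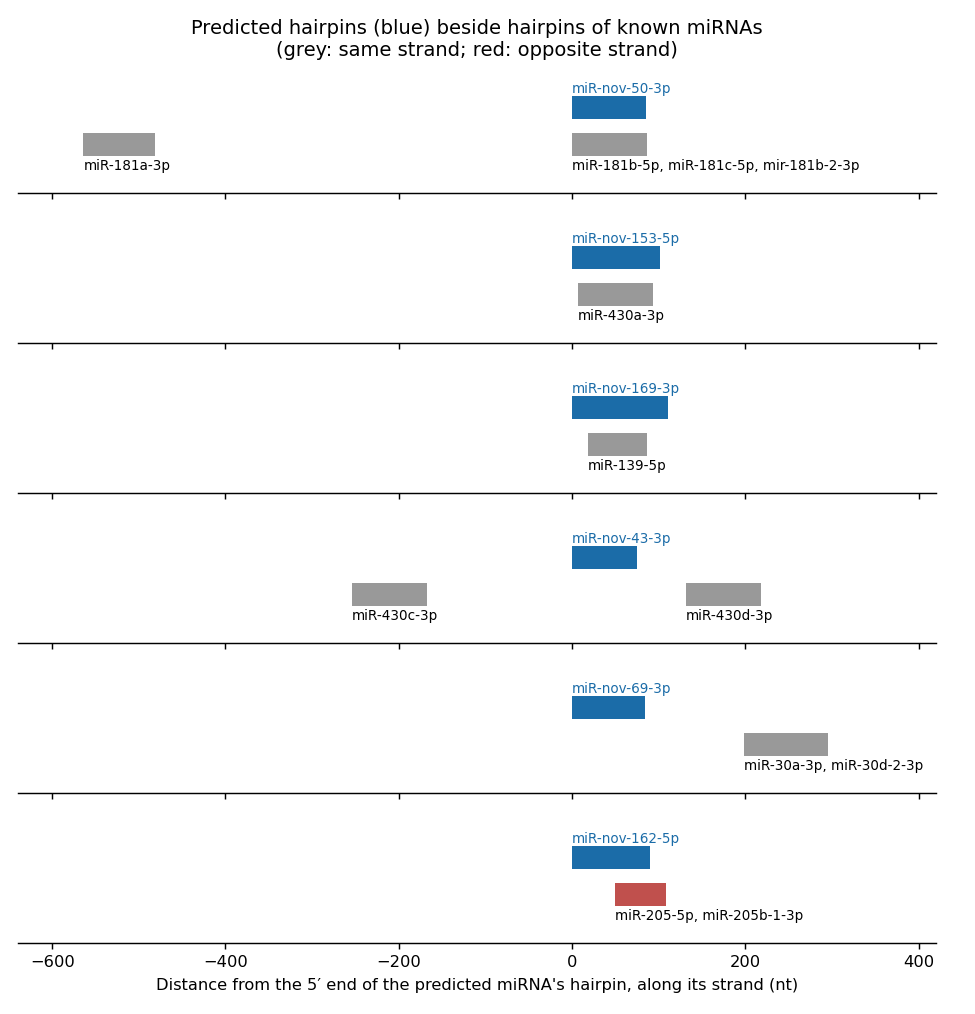
Map to scale of the hairpins of 6 members (blue) and the nearby or overlapping hairpins of known miRNAs (grey on the same strand, red on the opposite strand), with distance in nt from the 5′ end of the member's hairpin along its strand. omy-miR-nov-43-3p stands between hairpins of omy-miR-430c-3p and omy-miR-430d-3p, and those of omy-miR-nov-153-5p, omy-miR-nov-169-3p, omy-miR-nov-50-3p and omy-miR-nov-162-5p overlap a known one.

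On opposite strands, omy-miR-nov-162-5p, with 124 reads at chrUn:267391789-267391878, minus strand, overlapped the hairpin of omy-miR-205-5p, of a family known from epithelia, on the plus strand. The sequences are shown with the seed in capitals.
omy-miR-nov-162-5p: uCUUCAUAccacugaaaucug
omy-miR-205-5p: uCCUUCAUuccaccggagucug
omy-miR-205b-1-3p: gAUUUCAGugguaugaagagu
omy-miR-nov-162-5p is the reverse complement of omy-miR-205b-1-3p over a run of 19 bases, and it equals omy-miR-205-5p at 16 of 21 bases when shifted by 1. omy-miR-205-5p had 28162 reads and omy-miR-205b-1-3p had 17. omy-miR-nov-119-5p, with 847 reads, had predicted neighbours on the opposite strand at 709 and 1845 nt.

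The seeds of the members were nearly all different, with 155 seeds among 156 names. The shared seed was that of omy-miR-nov-156-5p with 57 reads and omy-miR-nov-157-5p with 38 reads. The second differs from the first by G12A, counted from 1 at the 5′ end. Their hairpins are listed on opposite strands at distant positions of chrUn. Since chrUn is unplaced sequence, their true distance and relative strand are not known.
omy-miR-nov-156-5p: uAAAGCAUcguggcacuaaga
omy-miR-nov-157-5p: uAAAGCAUcguagcacuaaga
This seed, in capitals, is also that of omy-mir-1788-3p, read as a 15-nt sequence. At 38 reads the Poisson interval was 26.9 to 52.2.

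In all, 9 members had the seed of a known main sequence (5.77%, 2.67 to 10.7), against 2 of 137 predicted names of 25 nt or longer (1.46%, 0.177 to 5.17). The known main sequences held 400 different seeds. Besides omy-miR-nov-43-3p, omy-miR-nov-156-5p and omy-miR-nov-157-5p, the pairs were omy-miR-nov-101-3p with omy-miR-551-3p, omy-miR-nov-243-3p with omy-miR-192-5p and omy-miR-192a-5p, omy-miR-nov-81-3p with omy-miR-190a-3p, omy-miR-nov-283-3p with 3 names of the miR-128 5p arm, omy-miR-nov-51-3p with omy-mir-133a-2-3p and omy-miR-nov-20-5p with omy-mir-145-3p. omy-miR-nov-43-3p also shares its seed with omy-miR-93-5p.

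Most of these likenesses ended at the seed, but that of omy-miR-nov-101-3p went on. After the seed omy-miR-nov-101-3p equals the main sequence of omy-miR-551-3p at 8 of 13 bases. With the seed included, it equals another sequence of omy-miR-551-3p, of 26 reads, at 17 of 21 aligned bases. After the seed omy-miR-nov-243-3p equals omy-miR-192-5p, of a family known from gut, liver and kidney, at 3 of 13. omy-miR-nov-283-3p, with 8139 reads, equals omy-miR-128-1-5p at 2 of 12 bases after the seed. The known partners of omy-miR-nov-51-3p and omy-miR-nov-20-5p are 16 and 15 nt long. Over all known sequences, compared without gaps over at least 18 bases, only omy-miR-nov-50-3p, omy-miR-nov-153-5p and omy-miR-nov-43-3p had a match with 2 or fewer differences. A match with up to 5 differences was found for 18 members (11.5%), against 7 of 137 predicted names of 25 nt or longer (5.11%), and the median over the members was 7 differences.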

How the data were processed

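The authors sequenced small RNA of trout eggs on an Illumina GAIIx, 1 pooled library per age. They discarded low-copy and impure sequences and those matching mRNA, repeats or other RNA families, matched the rest to miRBase, and predicted further miRNAs where the trout genome could form a hairpin. The deposited counts are reads of each unique sequence, listed with a hairpin position and with no library named. No source used here says whether they sum the 3 libraries, and they were treated as such sums. The lowest count of a predicted sequence was 20. Predicted miRNAs held 333447 reads in 359 sequences and 306 study numbers, and known miRNAs 7684127 reads in 1059 sequences and 575 names. These known reads are more than the reads that the paper lists as mapped to miRBase in the 3 libraries together. A plain sum of those mapped reads thus does not give this number, and the reason was not tested.

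Reads were summed by name. Exact Poisson and Clopper-Pearson intervals were computed at 95% with SciPy 1.17.1, and arms were folded with RNAcofold of ViennaRNA 2.7.2. The functions were checked on simulated data. Other software was Python 3.11.15, numpy 2.4.6, pandas 2.3.3 and matplotlib 3.10.9. Named are the 10 members with the most reads, members with both arms, more than 2 sequences, a neighbour, a shared seed or an overlap, the extremes and the member taken to RT-qPCR. A few others, among them omy-miR-nov-153-5p, omy-miR-nov-169-3p, omy-miR-nov-247-5p and partners on a shared hairpin, were named after their values were seen. The members and lists were chosen with earlier results of these data known. The ungapped comparison with all known sequences was added after the values were seen. No test was run, for want of replicates, and members were not matched to other annotated RNAs. Values by reads were therefore also given without omy-miR-nov-77-3p, omy-miR-nov-29-3p and omy-miR-nov-277-5p, a choice made after seeing the data.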

Additional observations from a re-analysis of the deposited data

How the results depend on the processing

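Of 47 alternative settings, 35 were labelled as the same and 12 as moved, and 5 of the 47 were chosen after seeing the data. A count was labelled the same within a factor of 1.5, and a share or median within its main interval. The label thus covers 107 members at 100 or more reads, against 156. It also covers shared seeds of 6 with known names that have a genome position and 13 with any known sequence, against 9. Without hairpins on chrUn, but with those on chrUn with a suffix, the 3p share was 65.4%. The share that began with U was then 63.5% and the pairs of neighbouring hairpins were 4. With main sequences of 21 to 23 nt the U share was 46.7% and names with several sequences 13. With names weighted by their reads the U share was 35.2%, and the 3p share was 34.6% when omy-miR-nov-77-3p, omy-miR-nov-29-3p and omy-miR-nov-277-5p were also left out. The 3p share by reads was 54.9% without the 10 leading members. Numbers with both arms came to 2 at 100 or more reads, and to 12 when the other arm could have any length. With the longest sequence as main sequence, 13 names had several sequences. Up to 1 kb, 4 pairs of hairpins were neighbours. With seed bases 2 to 7, 28 members shared a seed with a known miRNA. The number of duplexes with both overhangs was 6 with RNAduplex too. No paired analysis was possible because reads are listed for no library, and each age was a single pool. Depth limits the members under 50 reads, and the lowest count of 20 leaves sequences below it unseen.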

Other observations

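The single name with 2 study numbers in the table of predicted miRNAs was omy-miR-nov-16-3p. Its main sequence had 156 reads and the other, which begins 2 bases earlier, had 56, and the table places them at separate hairpins on chrUn.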
